A study of Mus musculus with 8 samples.

Results

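The enzymes that start, extend and modify chondroitin sulfate and dermatan sulfate chains were followed gene by gene in the mouse cornea and limbus. The group was 10 genes chosen by symbol: the xylosyltransferases Xylt1 and Xylt2, the initiating transferases Csgalnact1 and Csgalnact2, the chain polymerases Chsy1, Chsy3, Chpf and Chpf2, the epimerase Dse and the uronyl sulfotransferase Ust. All 10 were among the 17442 named genes with reads, out of 23420 named genes in the table. The tissues were corneal buttons and limbal rims, the ring between cornea and sclera, dissected from wild type adult C57BL/6J mice and pooled by tissue before RNA extraction. No cell type was sorted, the labels name no treatment, and both groups shared the genotype. The labels number 4 samples per tissue, but the deposited means were built from 1 library per tissue, so no difference below has a replicate check and no test between tissues was made. Each read number was worked back from the deposited table and is therefore a derived value.

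Chondroitin and dermatan sulfate are sulfated sugar chains carried by proteoglycans such as decorin and biglycan. A xylosyltransferase places xylose on a serine of the core protein, other enzymes complete a short linker, and the first N-acetylgalactosamine then commits the chain to the chondroitin type rather than to heparan sulfate. Synthases and their partner proteins extend the chain by alternating glucuronic acid and N-acetylgalactosamine, an epimerase turns glucuronic into iduronic acid to make dermatan sulfate, and sulfotransferases add sulfate. In the corneal stroma, chains of this family on decorin take part in the spacing of collagen fibrils.

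Upstream sequence is shown for the 3 genes with the largest ratios in their direction among those whose RefSeq promoter windows were used. These are Chpf and Ust on the limbal side and Chsy1 on the corneal side. Each line gives the 250 bases before the annotated start, 5′ to 3′ on the strand of the gene, on GRCm38.p6. Capitals mark the motifs searched for on both strands: the GC box GGGCGG (or CCGCCC), the E-box CACGTG and the cyclic AMP response element TGACGTCA. The TATA box TATAAA was searched for as well and was not found in these windows, and no matches overlap. The windows lie at chr1:75479472-75479721 (minus strand) for Chpf, chr10:8518826-8519075 (minus strand) for Ust and chr7:66109242-66109491 (plus strand) for Chsy1.
Chpf: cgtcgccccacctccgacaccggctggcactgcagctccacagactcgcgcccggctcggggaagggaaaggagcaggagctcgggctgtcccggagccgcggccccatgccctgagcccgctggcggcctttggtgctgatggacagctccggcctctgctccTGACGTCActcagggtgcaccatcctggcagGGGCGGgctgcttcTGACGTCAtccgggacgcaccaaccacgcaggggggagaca
Ust: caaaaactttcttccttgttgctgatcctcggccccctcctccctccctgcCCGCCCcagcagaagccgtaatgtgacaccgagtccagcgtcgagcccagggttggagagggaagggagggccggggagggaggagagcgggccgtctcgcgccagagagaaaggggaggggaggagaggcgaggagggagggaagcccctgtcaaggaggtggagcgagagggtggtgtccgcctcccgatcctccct
Chsy1: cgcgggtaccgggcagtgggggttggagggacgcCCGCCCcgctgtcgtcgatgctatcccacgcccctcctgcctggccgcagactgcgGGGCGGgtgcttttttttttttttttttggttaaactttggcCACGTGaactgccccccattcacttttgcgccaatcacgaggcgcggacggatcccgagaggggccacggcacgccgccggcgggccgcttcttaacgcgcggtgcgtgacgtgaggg

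The Chpf window held 1 GC box and 2 copies of TGACGTCA, a motif present in 1.55% of the 32851 windows of the same length. The Chsy1 window held 2 GC boxes and 1 CACGTG, which is present in 6.02% of all windows, and the Ust window held 1 GC box, present in 32.7%. TATAAA is present in 12.4% of all windows. Of the 10 genes, 7 had windows that were used, 9 in all because Chpf2 and Csgalnact2 had more than 1 start. Their GC content ran from 58.4% to 74.4%, against a median of 52.4% over all windows, whose quartiles are 45.2% and 61.2%. The windows of Xylt1, Csgalnact1 and Chsy3 were not used here. A motif match describes the letters of the window and nothing about binding.

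Reads on named genes numbered 26104317 in the cornea and 21182025 in the limbus. Ratios are limbus over cornea after division by the size factors behind the deposited means (1.03 for cornea, 0.967 for limbus), with 95% confidence intervals (CI) taken from exact Clopper-Pearson intervals of the share of limbal reads. The intervals take in counting error alone, because each tissue was 1 library. PCR copies of 1 molecule are not marked and count more than once, so the intervals may be too narrow even for counting error. The labels were checked with marker genes. Krt12, the keratin of corneal epithelium, had 1137735 corneal and 233324 limbal reads, and Krt15, a keratin of limbal basal cells, had 37738 and 353826. The keratocyte proteoglycan gene Kera had 12119 corneal and 1423 limbal reads, and the endothelial gene Pecam1 had 6 and 831. These 4 markers went with the labels. The keratocyte list that holds Kera did not go 1 way. Of its 10 genes, 4 were higher in the cornea and 4 in the limbus beyond counting error, beside 40.6% and 33.2% of all genes. For Krt12, Krt15 and Kera the next closest pair of read numbers missed the table row by less than for the enzyme genes, and it gave the same direction.

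The 10 genes lay on both sides, and the 4 chain polymerase genes split, 2 to each side. Both initiating transferases and both chondroitin synthases were higher in the cornea, while Xylt2, both polymerizing factors, the epimerase and the uronyl sulfotransferase were on the limbal side. Beyond counting error, 5 of the 10 genes were higher in the limbus, where 33.2% of the 13862 genes with over 3 reads in each library were, and 4 were higher in the cornea, where 40.6% of all genes were. At least 1.5-fold, 4 were higher in the limbus (21.7% of all genes) and 4 in the cornea (21.5%). Scaled to total reads, the counts at this fold became 6 in the limbus (27.4% of all genes) and 3 in the cornea (14.3%), since Xylt1 and Chpf2 came past it and Csgalnact2 no longer did. In either direction 9 of 10 passed the first rule and 8 of 10 the second, against 73.7% and 43.3% of all genes. Among the 6192 genes within the same range of mean reads these shares were 68.1% and 56.3%, so the counts of the group stand beside a background that is itself high. The median log2 ratio of the group was 0.52 and its median absolute log2 ratio 1.22, against -0.05 and 0.49 for all genes. The summed normalized reads of the group in the limbus were 0.943 times those in the cornea, and 1.09 times after scaling to total reads, so their direction turns with the scaling. In bulk tissue, fewer cells of a type and less RNA per cell cannot be told apart, and this holds for every ratio given here.

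**Figure D1:**
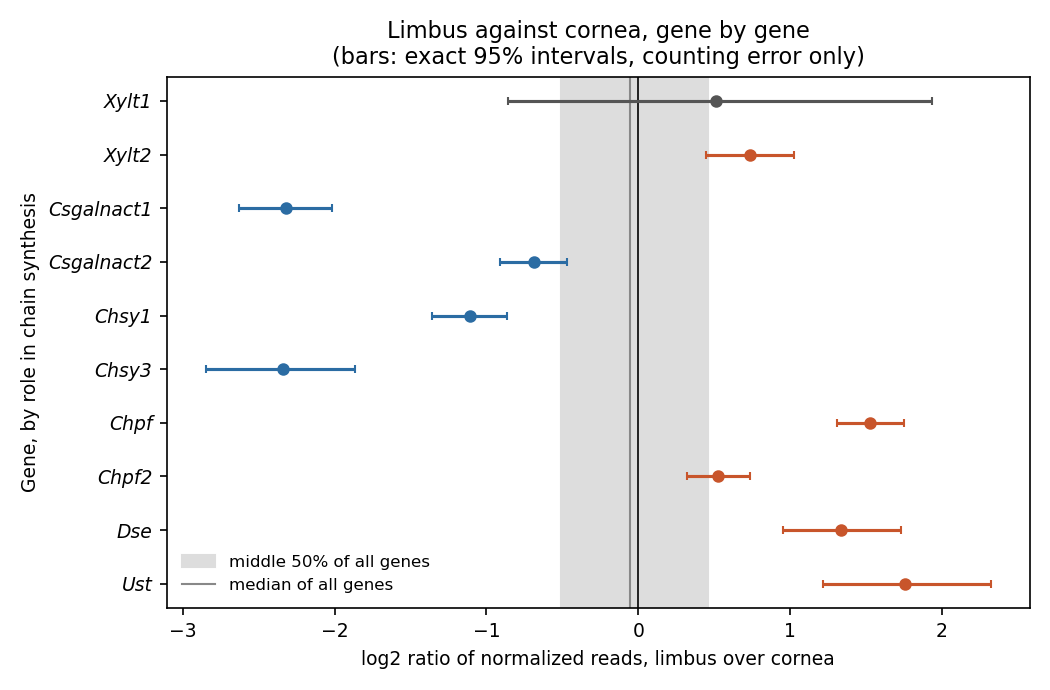
Log2 ratio of normalized reads, limbus over cornea, for the 10 enzyme genes in order of their role, with exact 95% intervals that cover counting error only. Orange points are higher in the limbus, blue points higher in the cornea and the grey point (Xylt1) has an interval that includes 0; the grey band spans the quartiles of all genes, from -0.51 to 0.46. The 2 largest ratios in the corneal direction are those of Csgalnact1 and Chsy3, and the largest in the limbal direction is that of Ust.

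Xylt1 and Xylt2 encode the xylosyltransferases that begin the linker of chondroitin, dermatan and heparan sulfate chains alike. Xylt2 (chromosome 11, 94663851 to 94677515, GRCm38) had 167 corneal and 260 limbal reads. After scaling it was 1.66-fold higher in the limbus, log2 ratio 0.73 (95% CI 0.45 to 1.02). Xylt1 (chromosome 7, 117380979 to 117673580) had 9 corneal and 12 limbal reads. Its log2 ratio was 0.51, with a 95% CI of -0.86 to 1.94, so no difference was detectable at this depth. Xylt2 therefore supplied nearly all xylosyltransferase reads in both tissues. Xylt1 made up 5.11% of the reads of the pair in the cornea (exact binomial 95% CI 2.36 to 9.49) and 4.41% in the limbus (2.30 to 7.58).

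Csgalnact1 and Csgalnact2 encode the transferases that add the first N-acetylgalactosamine to the finished linker. Csgalnact1 (chromosome 8, 68356781 to 68735146) had 570 corneal and 107 limbal reads. Its log2 ratio was -2.32 (95% CI -2.63 to -2.02), which is 4.98-fold higher in the cornea (4.05 to 6.19). Csgalnact2 (chromosome 6, 118107452 to 118139140) had 472 corneal and 274 limbal reads and was 1.61-fold higher in the cornea, log2 ratio -0.69 (95% CI -0.91 to -0.47). Both genes of the pair were thus on the corneal side, and they were not so to the same degree. Csgalnact1 gave 54.7% of the reads of the pair in the cornea (51.6 to 57.8) and 28.1% in the limbus (23.6 to 32.9). The log2 odds ratio between the tissues was -1.63 (95% CI -2.01 to -1.25), and it does not depend on the scaling between the libraries.

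Extl3 encodes the transferase that adds N-acetylglucosamine to the same linker and so commits it to heparan sulfate. It had 1301 corneal and 1207 limbal reads, log2 ratio -0.01 (95% CI -0.13 to 0.10). Among the reads of Csgalnact1, Csgalnact2 and Extl3, a grouping chosen after the values were seen, the Csgalnact pair gave 44.5% in the cornea (1042 reads, 42.4 to 46.5) and 24.0% in the limbus (381 reads, 21.9 to 26.2). The log2 odds ratio was -1.34 (95% CI -1.55 to -1.14).

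Chsy1 and Chsy3 encode chondroitin synthases, which carry both transferase activities needed to lengthen the chain. Chsy1 (chromosome 7, 66109515 to 66173798) had 451 corneal and 196 limbal reads. It was 2.15-fold higher in the cornea, log2 ratio -1.11 (95% CI -1.36 to -0.86). Chsy3 had 233 corneal and 43 limbal reads and was 5.07-fold higher in the cornea, log2 ratio -2.34 (95% CI -2.85 to -1.87). Both synthases were lower in the limbus. Chsy3 gave 34.1% of the reads of this pair in the cornea (30.5 to 37.8) and 17.99% in the limbus (13.3 to 23.5), a log2 odds ratio of -1.23 (95% CI -1.80 to -0.69). This difference within the pair rests on the choice of read numbers: with the next closest pair for Chsy1, its log2 ratio was -2.48 and the share of Chsy3 was 29.4% in the cornea and 31.4% in the limbus. An antisense gene, Gm26827, shares 148 exon bases with Chsy1.

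Chpf and Chpf2 encode the chondroitin polymerizing factors, partner proteins with which the synthases extend the chain. Chpf (chromosome 1, 75474569 to 75479307) had 234 corneal and 631 limbal reads. It was 2.88-fold higher in the limbus, log2 ratio 1.53 (95% CI 1.31 to 1.75). Chpf2 (chromosome 5, 24586741 to 24594556) had 339 corneal and 457 limbal reads and was 1.44-fold higher in the limbus, log2 ratio 0.53 (95% CI 0.32 to 0.73). The partner proteins thus lay on the side opposite to the synthases. Chpf2 gave 59.2% of the reads of its pair in the cornea (55.0 to 63.2) and 42.0% in the limbus (39.1 to 45.0), so more reads came from Chpf2 in the cornea and from Chpf in the limbus. Per kilobase of exon, Chpf2 had 49.99% of the corneal and 33.3% of the limbal level, so the lead of Chpf2 in the cornea is not there once length is counted. The log2 odds ratio was -0.9996 (95% CI -1.30 to -0.70). Chpf2 shares 2466 exon bases with Smarcd3, a chromatin remodelling gene on the opposite strand, which had 39 corneal and 198 limbal reads. The library kit keeps strand, but whether counting used it is not given in the sources used here, so reads of Chpf2 and Smarcd3 may be mixed.

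Taking these 4 polymerase genes as a group, also chosen after the values were seen, the synthases gave most of the reads in the cornea and the polymerizing factors most of them in the limbus. Chsy1 and Chsy3 gave 684 of 1257 reads in the cornea, 54.4% (51.6 to 57.2), and 239 of 1327 reads in the limbus, 18.01% (16.0 to 20.2). The log2 odds ratio was -2.44 (95% CI -2.71 to -2.18). Per kilobase of exon the shares were 53.6% and 17.7%.

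**Figure D2:**
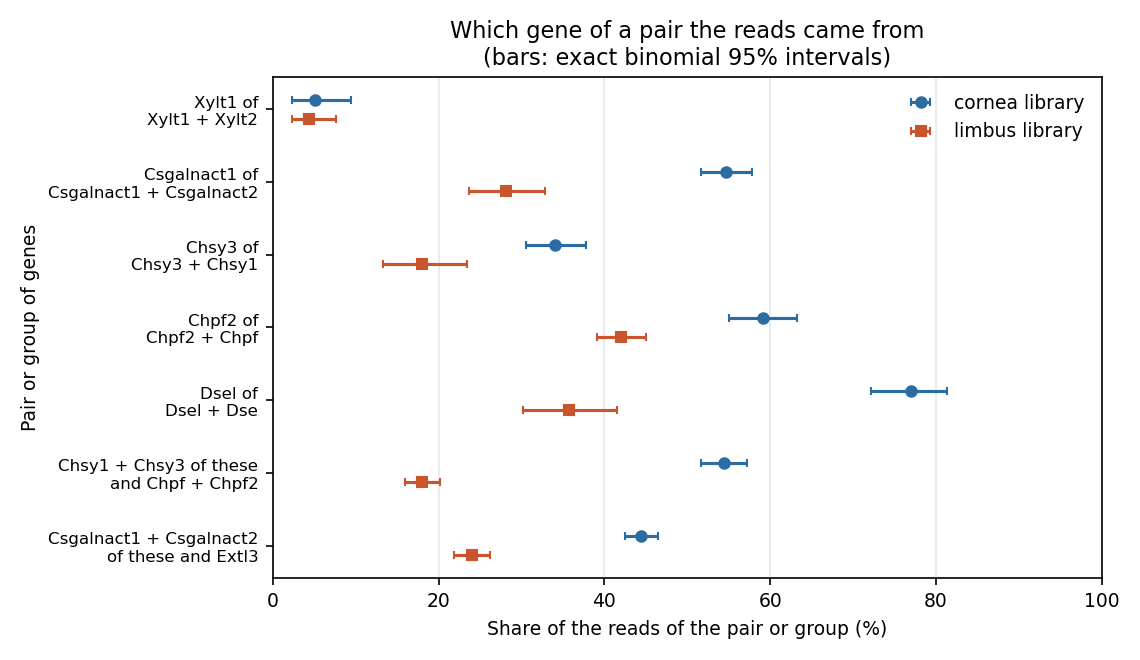
Share of the reads of each gene pair or group, in percent, that came from the gene or genes named first, in the cornea library (blue circles) and the limbus library (orange squares), with exact binomial 95% intervals. The intervals of the 2 libraries overlap for Xylt1 and Xylt2 and lie apart in the other 6 rows, with the cornea higher in each; the widest gap is for Dsel and Dse, 76.9% against 35.7%.

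Dse encodes the epimerase that turns glucuronic into iduronic acid, the step that makes dermatan sulfate. It lies on chromosome 10, 34151393 to 34207715, and had 80 corneal and 189 limbal reads. It was 2.52-fold higher in the limbus, log2 ratio 1.34 (95% CI 0.95 to 1.73). Its paralog Dsel, which encodes the second epimerase, went the other way, with 267 corneal and 105 limbal reads and log2 ratio -1.25 (95% CI -1.59 to -0.92). Dsel gave 76.9% of the epimerase reads in the cornea (72.1 to 81.3) and 35.7% in the limbus (30.2 to 41.5), so the leading epimerase gene was Dsel in the cornea and Dse in the limbus. The log2 odds ratio was -2.58 (95% CI -3.11 to -2.07).

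Ust encodes the sulfotransferase that places sulfate on the uronic acid, mainly on iduronic acid of dermatan sulfate. It lies on chromosome 10, 8204756 to 8518825, and had 38 corneal and 120 limbal reads. It was 3.37-fold higher in the limbus. Its log2 ratio of 1.75 (95% CI 1.22 to 2.32) was the highest of the 10 genes, and its interval overlaps those of Chpf and Dse. Chst14, which encodes the dermatan 4-O-sulfotransferase that acts with the epimerase, had 101 corneal and 182 limbal reads, log2 ratio 0.95 (95% CI 0.59 to 1.31). Dse, Ust and Chst14 were each higher in the limbus, and the other epimerase gene, Dsel, was higher in the cornea.

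Levels of different genes were compared as reads per kilobase of exon, scaled to the library total on named genes (RPKM). In the cornea the level was highest for Csgalnact1 (4.29) and Chsy1 (4.14), whose exact Poisson intervals overlap, followed by Csgalnact2 (3.32) and then by Chpf (2.32) and Chpf2 (2.32), whose intervals also overlap. Xylt2 (1.61) and Chsy3 (1.23) came next with overlapping intervals, and then Dse (0.615), Ust (0.315) and Xylt1 (0.0357). In the limbus the order of levels was another one. Chpf led with 7.73, followed by Chpf2 (3.86), Xylt2 (3.08), Csgalnact2 (2.38), Chsy1 (2.22), Dse (1.79), Ust (1.22), Csgalnact1 (0.992), Chsy3 (0.281) and Xylt1 (0.0587). Neighbours whose limbal intervals overlap were Csgalnact2 and Chsy1, Chsy1 and Dse, and Ust and Csgalnact1. Csgalnact1 went from rank 1 in the cornea to rank 8 in the limbus, and Chpf from a shared rank 4 to rank 1. With the length of the longest transcript in place of all exons, the limbal order was the same and Xylt2 and Chsy3 changed places in the cornea.

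**Figure D3:**
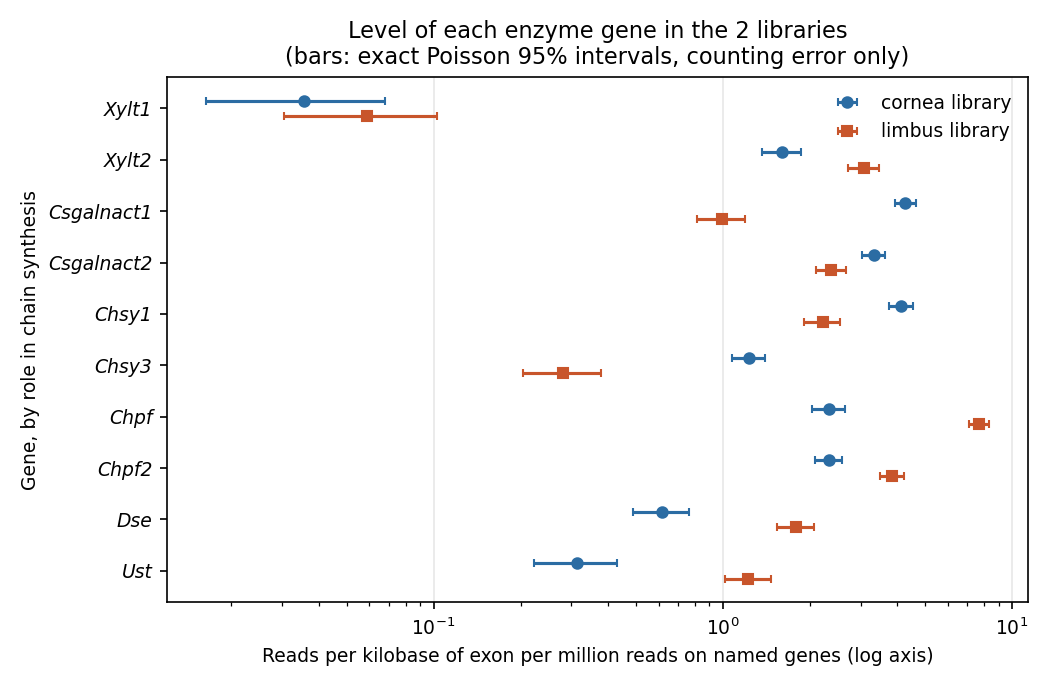
Level of each of the 10 enzyme genes in the cornea library (blue circles) and the limbus library (orange squares), in RPKM on a log axis, with exact Poisson 95% intervals for counting error only. Csgalnact1 lies at 4.29 in the cornea and 0.992 in the limbus, Chpf at 2.32 and 7.73, and Xylt1 is the lowest in both.

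The neighbouring steps of the pathway were described by lists of genes chosen by function. Of the 48 genes of these lists that had over 3 reads in each library, 24 were higher in the limbus and, likewise beyond counting error, 17 in the cornea, beside 33.2% and 40.6% of all genes. Their median log2 ratio was 0.23. Of the 4 linker enzyme genes with reads, 2 were higher in each tissue beyond counting error. Among all genes the shares were 33.2% for the limbus and 40.6% for the cornea. The galactosyltransferase gene B3galt6 had 379 corneal and 226 limbal reads, log2 ratio -0.65 (95% CI -0.89 to -0.41). Fam20b, which encodes the kinase that phosphorylates the linker xylose, had 3688 corneal and 2339 limbal reads, log2 ratio -0.56 (95% CI -0.64 to -0.49). The sulfotransferase list with Dsel had 3 of 6 genes higher in the limbus (33.2% of all genes) against 2 in the cornea (40.6%), and its median log2 ratio was 0.56. Chst14 and Dsel, given above, had the largest ratios in it among genes with at least 10 reads in both tissues.

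Genes that supply sugar and sulfate donors had 6 of 12 higher in the cornea and 2 of 12 in the limbus, beside 40.6% and 33.2% of all genes, and a median log2 ratio of -0.19. Scaled to total reads these became 3 and 4 of 12, beside 29.7% and 45.1% of all genes, and the median 0.02, so no direction is read from this list. Papss2, which encodes a synthase of the sulfate donor PAPS, had 2623 corneal and 751 limbal reads, log2 ratio -1.71 (95% CI -1.83 to -1.59). Impad1, which encodes a Golgi phosphatase that clears a by-product of sulfation, had 1376 corneal and 646 limbal reads, log2 ratio -0.995 (95% CI -1.13 to -0.86).

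The core proteins that carry such chains were mostly higher in the limbus, 12 of the 13 with over 3 reads in each library against 33.2% of all genes, with a median log2 ratio of 1.90. The exception was Cd44, the hyaluronan receptor, some forms of which carry chondroitin sulfate, named after seeing its values, with 13065 corneal and 2934 limbal reads. Decorin (Dcn) had 30813 corneal and 44833 limbal reads, log2 ratio 0.64 (95% CI 0.62 to 0.66), and biglycan (Bgn) had 4499 and 11567, log2 ratio 1.46 (95% CI 1.41 to 1.51). Versican (Vcan) had 7 corneal and 27 limbal reads, log2 ratio 2.04 (95% CI 0.81 to 3.49), and aggrecan (Acan) had 0 and 3, which allows no fold. The largest ratios under the naming rule were those of Cd74, the invariant chain of antigen presenting cells, with 413 corneal and 3823 limbal reads and log2 ratio 3.31 (95% CI 3.16 to 3.46), and of Thbd, thrombomodulin of blood vessels, with 95 corneal and 415 limbal reads and 2.22 (95% CI 1.90 to 2.56).

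**Figure D4:**
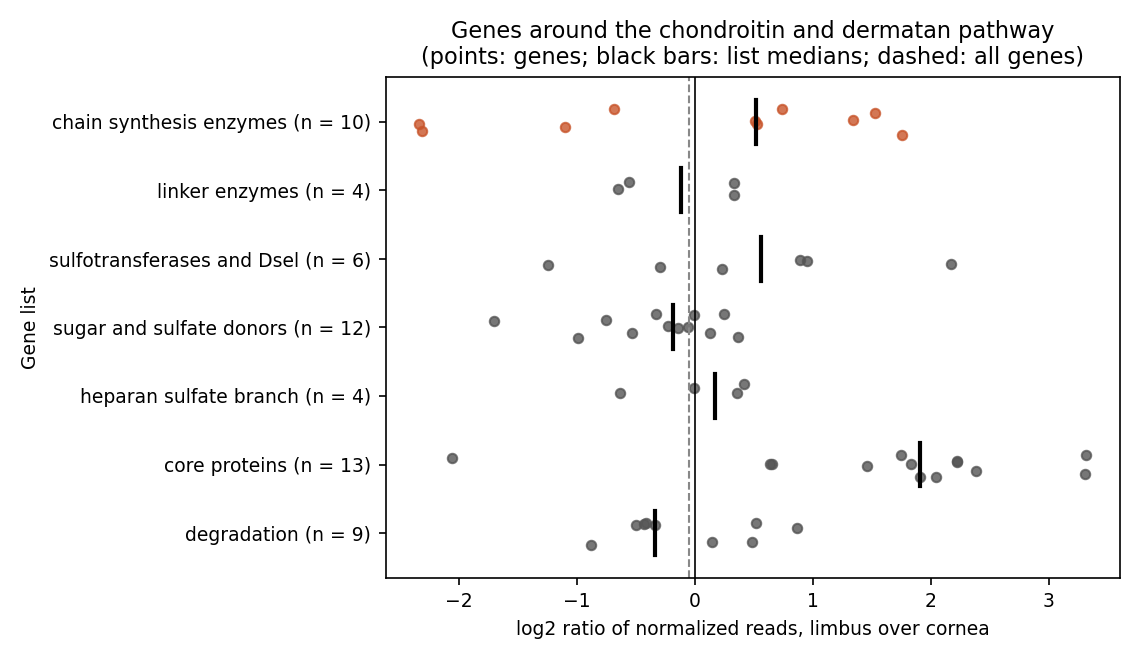
Log2 ratio of normalized reads, limbus over cornea, for each gene with over 3 reads in each library, by pathway list, with black bars at the list medians and a dashed line at the median of all genes (-0.05). The enzyme genes (orange) lie on both sides of 0. On the limbal side are 12 of the 13 core protein genes, beside 46.6% of all genes. On the corneal side are 9 of the 12 donor genes, beside 7401 of all 13862 genes. Scaled to total reads the donor median went from -0.19 to 0.02, so no direction is read from that list.

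Markers of several cell types moved with the tissues. For the gene counts below, the background beyond counting error was 40.6% of all genes on the corneal side and 33.2% on the limbal side. The 10 corneal epithelial markers together had 0.409 times as many normalized reads in the limbus as in the cornea (1054619 against 2578334), with 8 of the 9 over 3 reads in both libraries higher in the cornea. The 10 keratocyte markers together had 0.525 times as many (359783 against 684923), with 4 higher in the cornea and 4 in the limbus. That sum rests on Aldh3a1, which is also in the corneal epithelial list: without it the other 9 summed to 1.36 times as many in the limbus (96021 against 70713). Most of these reads in turn came from Dcn (46346 against 29807) and Col1a1 (31709 against 13326). Kera went the other way (1471 against 11723), so neither sum is read as a direction of the keratocyte list. Blood endothelial markers summed to 17.0 times as many normalized reads in the limbus (3512 against 206), with all 5 genes over 3 reads in each library higher there. Most of the corneal part of that sum was Kdr (287 limbal against 164 corneal). Markers of sclera and cartilage summed to 16.3 times as many in the limbus (14194 against 870), most of it in both libraries from Fmod (13123 against 690). Of these markers, 3 of 3 over 3 reads in each library were higher there, and Acan had 0 reads in the cornea. These lists moved in the same comparison as the corneal and limbal genes above, and their part in those ratios was not tested.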

How the data were processed

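Limbal rims and corneal buttons were pooled by tissue, and stranded total RNA libraries were sequenced. Per the paper's methods, the authors trimmed adaptors, mapped with CLC Genomics Workbench to the mouse build GRCm38 (mm10) and normalized by trimmed mean of M-values; the counting settings are not given in the sources used here. They deposited 1 table of the comparison. The authors deposited for each gene a mean signal, the average over libraries of reads scaled by size factors. The deposited log2 fold changes with their standard errors are shrunken and are not printed. The deposited p-values and adjusted p-values were not used.

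Each mean is the average of 2 libraries, 109 cornea reads being worth 102 limbus reads. For 6143 genes a mean allowed 1 pair of read numbers, and for 11299 more than 1. Among these, the pair was taken whose predicted standard error, at the dispersion that gives the deposited log2 fold change, came closest to the deposited one. The deposited comparison columns served only to choose among pairs, 31 genes were placed by a dispersion trend, and 9 had a close second pair. A note in the table gives the direction. Recovery was tested on data simulated from the same model, which cannot show that the deposited table was made by that model. The 17484 rows without a gene name hold no values and stayed out, and 5978 named genes have a mean of 0.

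The design also allowed for a test on counts per sample; the table holds none, so reads per tissue with exact Clopper-Pearson intervals (95%) replaced it, with a floor of 3 reads. A fold of 1.5 was a second rule. Exon lengths, positions and overlaps are from GENCODE for GRCm38, and upstream windows from RefSeq for GRCm38.p6. The members and gene lists were chosen with earlier results of these data known. Named genes are the 10 members, per pathway list the 2 genes with the largest absolute log2 ratio among those with at least 10 reads in both tissues, Dsel, Chst14, Fam20b, Extl3, Acan, Vcan, Dcn, Bgn, and 4 tissue markers; 15 marker lists were summed. Other scalings, a pseudocount of 1, filters on mean reads (10 and 50), the next closest read pair and other lengths were tried. Python 3.11.15, numpy 2.4.6, pandas 2.3.3, scipy 1.17.1 and matplotlib 3.10.9 were used.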

Additional observations from a re-analysis of the deposited data

How the results depend on the processing

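All 10 enzyme genes kept their direction under scaling to total reads, the trimmed mean of M-values and a pseudocount of 1 normalized read, and the 9 beyond counting error stayed so under both scalings; no interval was computed with the pseudocount. Total-read scaling shifted all log2 ratios by 0.21 and moved the share of all genes on the limbal side from 46.6% to 58.9%; the trimmed mean raised ratios by 0.02, to 47.6%. The choice of read pair mattered more. With the next closest pair, the log2 ratio was 2.74 for Xylt2, -6.99 for Csgalnact1, -3.21 for Csgalnact2, -2.48 for Chsy1, 5.80 for Chpf and 2.55 for Chpf2, all in the same direction; the mean allows no other pair for Xylt1, and no other pair allowed for Chsy3, Dse and Ust could give the deposited fold change. The next pairs missed the deposited standard error by at least 0.0237, the pairs used by at most 3.9e-06. The next pairs gave shares of 13.4% for Xylt1 in the cornea, 49.6% and 6.67% for Csgalnact1 in cornea and limbus, 29.4% and 31.4% for Chsy3, where the order of the tissues turns, 88.3% for Chpf2 in the cornea, and 82.5% and 1.56% for Dsel. Per kilobase, Xylt1 gave 2.17% and 1.87% of its pair, Chsy3 23.0% and 11.2%, and Chpf2 49.99% and 33.3%. With the longest transcript as length, 7 of the 20 levels left their interval.

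No paired analysis was possible because the table has no value for a numbered sample, and leaving out replicates was not run for the same reason. With 1 library per tissue, differences between animals, dissections and library preparations cannot be told apart from differences between tissues. Depth limits Xylt1 most (9 and 12 reads), and then Ust in the cornea (38) and Chsy3 in the limbus (43).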

Other observations

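The enzymes that break chondroitin and dermatan sulfate down in lysosomes were on both sides. Of 9 genes, 5 were higher in the cornea and 3 in the limbus beyond counting error, beside 40.6% and 33.2% of all genes, with a median log2 ratio of -0.34. Ids, iduronate sulfatase, which removes the sulfate that Ust adds, had 2906 corneal and 1473 limbal reads, log2 ratio -0.88 (95% CI -0.98 to -0.79). Hexa, a hexosaminidase subunit, had 763 corneal and 1302 limbal reads, log2 ratio 0.87 (95% CI 0.74 to 0.998). On the heparan sulfate branch, 4 genes had over 3 reads in each library. Beyond counting error, 2 of these lay on the limbal side, against 33.2% of all genes, and 1 on the corneal side, against 40.6%. Ext2, a heparan sulfate polymerase gene, had 987 corneal and 1230 limbal reads and log2 ratio 0.41 (95% CI 0.29 to 0.54), and Extl2 had 383 corneal and 231 limbal reads and -0.63 (95% CI -0.88 to -0.39).

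Some genes with 3 reads or fewer in the cornea are named here after their values were seen. The core protein genes Epyc and Col9a2 had 0 reads in the cornea and 19 and 29 in the limbus, at least 6.77-fold and 10.3-fold higher in the limbus against a floor of 3 cornea reads. Ptprz1, the core protein of phosphacan, had 1 corneal and 135 limbal reads, log2 ratio 7.17 (95% CI 4.67 to 12.49). Chst3, a chondroitin 6-O-sulfotransferase gene, had 1 corneal and 26 limbal reads, log2 ratio 4.80 (95% CI 2.19 to 10.15).

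The other marker lists, as summed normalized reads in the limbus over those in the cornea, gave 7.94 for limbal basal epithelium, 3.10 for conjunctival epithelium, 1.46 for corneal endothelium, 21.6 for lymphatic endothelium, 1.02 for mural cells, 4.03 for leukocytes, 5.38 for melanocytes, 1.41 for Schwann cells, 153 for skeletal muscle, 10.02 for photoreceptors and 4.64 for lens.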
